A study of Mus musculus with 6 samples.

Results

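The genes of the BCL2 family described here are Bcl2, Bcl2l1, Mcl1, Bax, Bak1, Bid, Bcl2l11, Bmf, Bbc3 and Pmaip1, chosen by symbol, and all 10 were found among the 21240 genes of the count table. The BCL2 family decides whether the outer membrane of the mitochondrion stays closed during stress. BAX and BAK1 are the members that can open it and release cytochrome c. BCL2, BCL-XL (encoded by Bcl2l1) and MCL1 hold them in check. The BH3-only proteins BID, BIM (Bcl2l11), BMF, PUMA (Bbc3) and NOXA (Pmaip1) bind the guardians, and some of them also activate BAX and BAK1 directly. TGFβ is known to trigger apoptosis in many epithelial cells as well as the epithelial to mesenchymal transition, and BH3-only genes are among its known targets.

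NMuMG cells, an epithelial line from normal mouse mammary gland, had gone 6 h without serum and insulin before TGFβ1 at 5 ng/ml or its HCl and BSA vehicle was added. The 3 groups are vehicle for 2 h, TGFβ1 for 2 h and TGFβ1 for 12 h, with 2 biological replicates each, 6 libraries of stranded total RNA in all. Because vehicle was sampled at 2 h only, TGFβ for 12 h and the longer time without serum cannot be told apart. Levels are given in CPM, the reads of a gene per 1000000 reads of its library after TMM scaling. Genes that reached 2 CPM, here before TMM scaling, in 2 or more libraries were tested, 11080 in all. A gene was called changed when its adjusted p in edgeR's quasi-likelihood test was under 0.05. All 10 members passed that filter. With 2 libraries a group, the p-values rest on few degrees of freedom and on replicates that the study describes as biological.

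Libraries held 14705886 to 23786993 counts. Fewer cells of a type and less RNA per cell cannot be told apart in such bulk samples. Of 10 epithelial markers, Cdh1, Krt8, Krt18, Krt19, Tjp1 and Ocln were well counted, whereas Epcam, Cldn3, Cldn7 and Esrp1 had at most 16 counts in any library, and the 10 summed to 5320 to 6850 CPM in the vehicle and 2 h libraries and to 10600 CPM in both 12 h libraries. Krt8 and Krt18 carried that higher sum, with means of 3329 and 6183 CPM at 12 h against 1073 and 2148 with vehicle, while Krt19 (455 against 1755), Tjp1 (232 against 294) and Ocln (52.0 against 74.5) were lower in the mean. The 5 markers of leukocytes summed to 4.14 to 6.88 CPM, nearly all of it Cd68, with at most 4 counts of the leukocyte gene Ptprc. The 4 markers of endothelial cells summed to at most 0.354 CPM in the vehicle and 2 h libraries and to 1.74 and 1.95 CPM at 12 h. Cdh5 made up 1.70 and 1.85 CPM of the 12 h sums. The 4 of fibroblasts summed to 4.00 and 3.50 CPM in the vehicle libraries, 8.39 and 8.77 at 2 h and 13.8 and 13.3 at 12 h, most of the latter Col1a1, and the part of these levels in the results was not tested. The TGFβ target Smad7 had a log2FC of 2.07 at 2 h and 2.65 at 12 h. The replicates at 2 h differed more than those of the other groups, with a median absolute log2 difference of 0.220 against 0.152 for vehicle and 0.134 at 12 h, and Malat1 took 4.14% of the counts of 2 h replicate 1 but 2.64% of those of replicate 2.

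Among the 10 genes, Bmf was called higher at both times, Bbc3 lower at 2 h, and Bid and Bax lower at 12 h. Bcl2l11, Bak1 and Pmaip1 were called higher at 12 h, in 11, 10 and 8 of the 14 alternatives. Bcl2l11 and Bak1 had log2FCs of 0.99 and 0.39 at 2 h, near the 0.90 and 0.44 at 12 h, but were not called at 2 h. At 2 h the test called 2 members, 1 higher and 1 lower, where it called 15.2% of all genes tested, 9.91% higher and 5.25% lower. At 12 h it called 6, of which 4 were higher and 2 lower, where 43.3% of all genes were called, 21.8% higher and 21.5% lower. Between 12 h and 2 h it called 5, of which 3 were higher and 2 lower at 12 h, where 34.1% of all genes were called, 15.2% higher and 18.9% lower. An absolute log2FC above 1 was also met by Bmf and Bbc3 at 2 h (4.23% of all genes higher and 2.01% lower), by Bmf and Bid at 12 h (8.03% and 11.6%) and by Bcl2 and Bid between the times (4.50% and 9.87%). The 20%, 60% and 50% of members called stood above the shares of all genes by less than 2 genes of 10 in each comparison. Bcl2l1 and Mcl1 were called in none of the 3 comparisons. The median log2FC of the members was -0.11 at 2 h and 0.27 at 12 h, against -0.01 and 0.02 over all genes tested, and members lay on both sides of 0 at each time. With the replicate number as a block the counts were 5, 7 and 5, where 29.1%, 55.3% and 48.5% of all genes were called. Without TMM factors the 12 h count became 2 higher and 2 lower, while all genes went from 2414 higher and 2385 lower to 1831 and 3045. Without 2 h replicate 1 the 2 h count was 5, where 19.9% of all genes were called. The 12 h count was 3 without vehicle replicate 2 (30.5% of all genes) and 3 without 12 h replicate 2 (25.7%). Between the times it was 2 without 12 h replicate 1 (14.6% of all genes) and 3 without 12 h replicate 2 (15.1%).

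**Figure D1:**
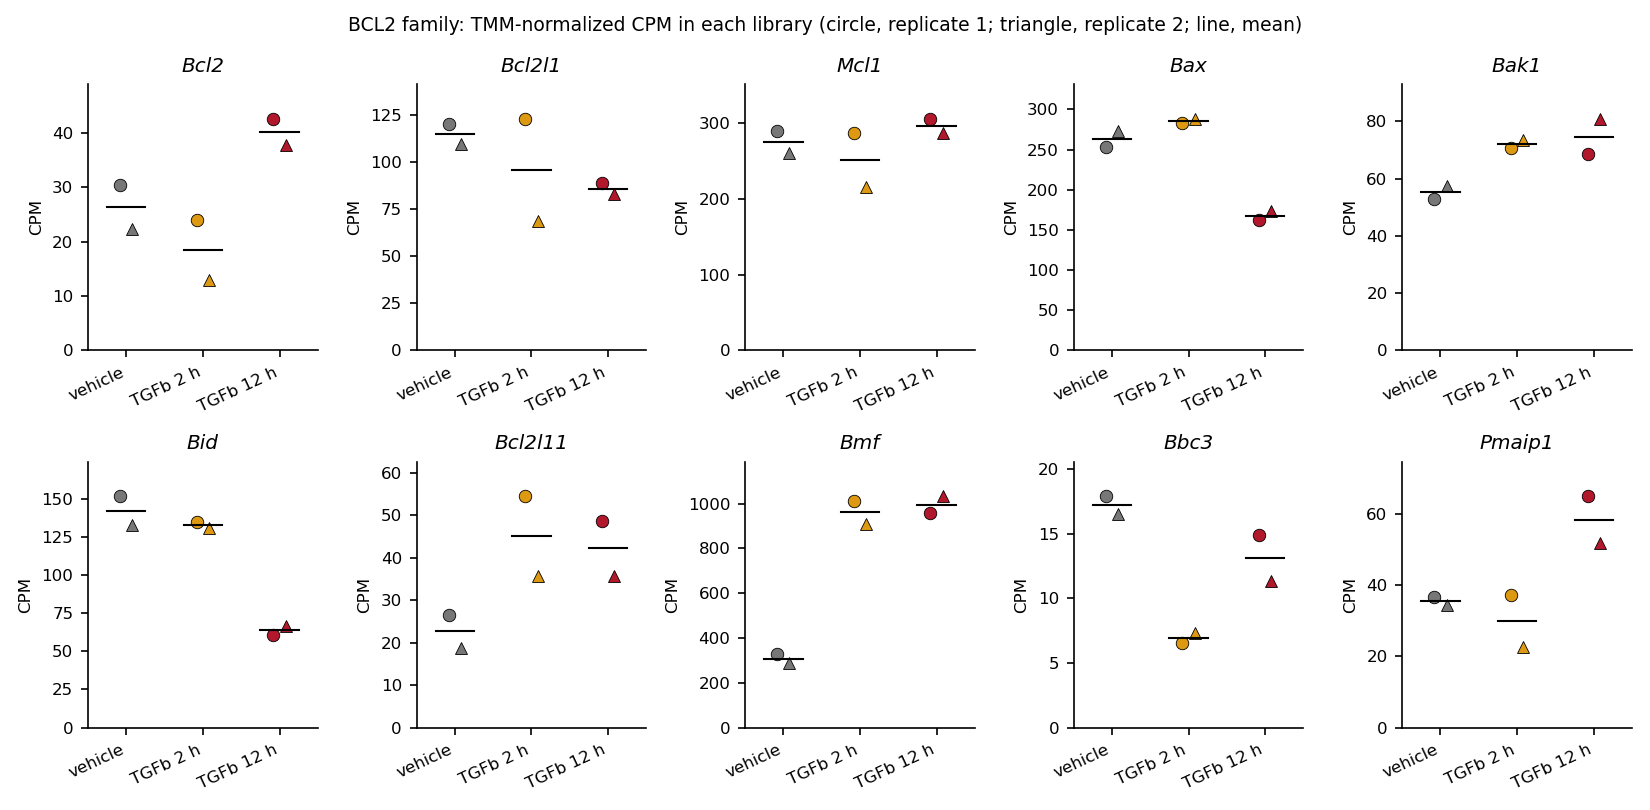
TMM-normalized CPM (vertical axes, linear from 0) of each of the 10 genes in the 6 libraries, by group. Circles are replicate 1, triangles replicate 2 and lines the group mean. Bmf stands near 300 CPM in vehicle and above 900 CPM in all 4 TGFβ libraries, Bbc3 dips at 2 h, Bid and Bax drop at 12 h, and the 2 h replicates lie apart in Bcl2, Bcl2l1, Mcl1, Bcl2l11 and Pmaip1.

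The start regions of 9 members were taken from RefSeq (GRCm38.p6), 250 bases before to 50 bases after each annotated start, 16 windows in all, and each matched the NCBIM37 (mm9) genome at a single place. Pmaip1 is named only. The windows below belong to Bmf, Bcl2l11 and Bbc3, BH3-only genes with a window that holds a match, and start 1 of Bmf, which holds none, is shown beside its start 3. They were chosen after the values were seen, and Bid, which fell at 12 h, had no match. Capitals mark matches on either strand to CAGAC (a SMAD-binding box) or GTAAACA (a FOXO-binding sequence). These letters do not overlap one another in any window printed. All are written 5′ to 3′ along the gene.
Bmf, start 1, chr2:118375373-118375672, minus strand, no match: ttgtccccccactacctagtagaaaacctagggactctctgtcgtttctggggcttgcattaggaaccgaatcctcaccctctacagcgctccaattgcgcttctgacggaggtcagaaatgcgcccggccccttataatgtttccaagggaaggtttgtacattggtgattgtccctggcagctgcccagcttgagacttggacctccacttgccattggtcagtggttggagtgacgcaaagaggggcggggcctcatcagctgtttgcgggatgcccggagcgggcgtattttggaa
Bmf, start 3, chr2:118370274-118370573, minus strand, 3 matches to CAGAC: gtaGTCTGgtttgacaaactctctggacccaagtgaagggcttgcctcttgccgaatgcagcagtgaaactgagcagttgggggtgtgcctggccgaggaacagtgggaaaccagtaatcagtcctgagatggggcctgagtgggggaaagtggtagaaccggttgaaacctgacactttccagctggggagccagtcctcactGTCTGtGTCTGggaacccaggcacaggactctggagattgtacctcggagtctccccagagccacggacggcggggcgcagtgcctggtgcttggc
Bcl2l11, start 1, chr2:127951524-127951823, plus strand, 1 match to GTAAACA: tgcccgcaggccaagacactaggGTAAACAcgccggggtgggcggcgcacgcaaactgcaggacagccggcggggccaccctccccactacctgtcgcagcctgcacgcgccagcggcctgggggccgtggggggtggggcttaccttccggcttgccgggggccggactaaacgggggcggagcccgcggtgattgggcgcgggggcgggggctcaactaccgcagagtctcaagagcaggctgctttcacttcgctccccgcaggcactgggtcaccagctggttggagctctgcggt
Bbc3, start 2, chr7:16895360-16895659, plus strand, 2 matches to CAGAC and 1 to GTAAACA: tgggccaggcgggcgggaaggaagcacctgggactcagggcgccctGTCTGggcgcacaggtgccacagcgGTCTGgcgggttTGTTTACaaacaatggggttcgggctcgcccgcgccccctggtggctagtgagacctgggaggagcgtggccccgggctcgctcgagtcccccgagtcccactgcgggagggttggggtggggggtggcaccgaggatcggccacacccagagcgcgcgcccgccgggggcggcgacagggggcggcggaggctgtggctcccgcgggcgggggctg

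In the third Bmf window the CAGAC matches begin 247, 46 and 40 bases upstream of the start, all on the opposite strand, the latter pair 1 base apart. That start lies in an exon of Bmf, and the second Bbc3 start in an intron of Bbc3. CAGAC is common, since 49.6% of the 32851 RefSeq start windows hold it, and GTAAACA was in 3.65%. The AP-1 sequence TGANTCA (7.81% of all windows), the CRE sequence TGACGTCA (1.79%) and the SMAD palindrome GTCTAGAC (0.213%) were searched on both strands too and were in none of the 16 windows. The windows of Bcl2, Mcl1, Bax and Bid held none of the 5 sequences. Bak1, the second Bcl2l11 start and the first Bbc3 start held CAGAC a single time each, and the third Bcl2l1 start held it 2 times. A match of letters says nothing about binding in these cells.

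Bmf encodes a BH3-only protein that is held at the cytoskeleton through dynein light chain in resting cells. The gene (Entrez 171543) spans chr2:118354493-118375423 on the minus strand of NCBIM37. The vehicle libraries stood at 329 and 288 CPM, those at 2 h at 1014 and 907, and those at 12 h at 957 and 1032. Both TGFβ groups lay wholly above vehicle and overlapped each other. The log2FC was 1.64 at 2 h (SE 0.122, adjusted p = 0.000624 from edgeR) and 1.69 at 12 h (SE 0.123, adjusted p = 0.000145), 3.11-fold and 3.22-fold. Between the times it was 0.05, with a 95% interval from -0.24 to 0.34. In order of log2FC, Bmf was gene 244 of 11080 at 2 h and gene 420 at 12 h. It was called against vehicle at both times in each of the 14 alternatives, with log2FCs from 1.53 to 1.74 at 2 h and from 1.56 to 1.78 at 12 h.

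Bcl2l11 encodes BIM, a BH3-only protein that binds all the guardians and is a known target of FOXO factors. Its counts (Entrez 12125, chr2:127951774-127988283, plus strand) sum over isoforms, which the table does not separate. It had 26.5 and 18.8 CPM in the vehicle libraries, 54.4 and 35.6 at 2 h and 48.6 and 35.8 at 12 h. Replicate 1 was the higher in every group, and no TGFβ library overlapped the vehicle range. At 12 h the log2FC was 0.90 (SE 0.271, edgeR's adjusted p = 0.0358). At 2 h it was 0.99 (SE 0.272), but the adjusted p from edgeR was 0.0564 (0.000224 to 0.221 over the 14 alternatives). It was called with the replicate block (log2FC 0.98, adjusted p = 0.000224), with DESeq2, with no filter on low counts and without 2 h replicate 2 (log2FC 1.26). Without 2 h replicate 1 its log2FC was 0.63 and without vehicle replicate 2 it was 0.76, neither called. At 12 h the call was lost without vehicle replicate 2 (log2FC 0.67), without 12 h replicate 1 (0.64) and without 12 h replicate 2 (1.09), with adjusted p-values over the alternatives from 0.000113 to 0.220. Between 12 h and 2 h the log2FC was -0.09, with a 95% interval from -0.73 to 0.54.

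Bbc3 encodes PUMA, a BH3-only protein and a classical p53 target. It was the least counted member, with 129 to 343 reads per library (Entrez 170770, chr7:16894965-16903554, plus strand). It had 17.9 and 16.5 CPM in the vehicle libraries, 6.52 and 7.31 at 2 h and 14.9 and 11.3 at 12 h. The 2 h libraries lay below all others, and the 12 h libraries below vehicle. Its log2FC at 2 h was -1.31 (SE 0.192, edgeR's adjusted p = 0.00652), 2.48-fold lower, and it was called at 2 h in each of the 14 alternatives. At 12 h against vehicle the log2FC was -0.39, with a 95% interval from -0.83 to 0.06 (adjusted p = 0.138). Leaving out 12 h replicate 1 gave -0.61 and leaving out 12 h replicate 2 gave -0.21, neither called. It rose from 2 h to 12 h by a log2FC of 0.93 (SE 0.191, edgeR's adjusted p = 0.0113). That call was lost without 12 h replicate 1 (log2FC 0.71, adjusted p = 0.0808), the highest of the alternatives, which began at 0.00128.

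Pmaip1 encodes NOXA, a BH3-only protein that binds MCL1 most closely. It had 36.6 and 34.4 CPM in the vehicle libraries, 37.3 and 22.8 at 2 h and 65.0 and 51.9 at 12 h (Entrez 58801, chromosome 18). Both 12 h libraries were above all others, and at 2 h replicate 2 alone lay below vehicle. At 12 h its log2FC was 0.72 (SE 0.236, edgeR's adjusted p = 0.0473), close to the threshold. The adjusted p at 12 h ran from 0.00248 to 0.259 over the 14 alternatives. It was 0.0507 with DESeq2 size factors and 0.0717 without TMM factors, and leaving out any single library of the vehicle or 12 h groups ended the call (log2FC 0.53 to 0.86). Between 2 h and 12 h the log2FC was 0.96 (SE 0.236, edgeR's adjusted p = 0.0213). That call was lost without either 12 h library, with log2FCs of 0.78 without replicate 1 and 1.11 without replicate 2. At 2 h the log2FC was -0.24, with a 95% interval from -0.81 to 0.32, and it was called only without 2 h replicate 1 (log2FC -0.66, adjusted p = 0.0415, against up to 0.851 in the other alternatives).

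Bid encodes the BH3-only protein that caspase-8 cleaves, which joins the death receptors to the mitochondrion. It had 151 and 132 CPM in the vehicle libraries, 134 and 131 at 2 h and 60.9 and 66.7 at 12 h (Entrez 12122, chr6:120841948-120866871, minus strand). The 12 h libraries were far below the other 4, which overlapped. The log2FC was -1.15 at 12 h (SE 0.112, edgeR's adjusted p = 0.000384), 2.23-fold lower, and -1.06 between 2 h and 12 h (SE 0.112, adjusted p = 0.00103). At 2 h it was -0.10, with a 95% interval from -0.36 to 0.17. Both 12 h calls held in each of the 14 alternatives. Bid overlaps Bcl2l13, which lies on the other strand and had a log2FC of 0.57 at 12 h, and the authors counted by strand.

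Bax and Bak1 encode the proteins that form the pore. Bax (Entrez 12028, chr7:52717065-52722268, minus strand) had 253 and 274 CPM in the vehicle libraries, 283 and 288 at 2 h and 163 and 173 at 12 h. The 12 h libraries lay below all others, as they did for Bid. Its log2FC was -0.65 at 12 h (SE 0.0988, edgeR's adjusted p = 0.00246) and -0.77 between 2 h and 12 h (SE 0.0989, adjusted p = 0.00208), and both calls held in each of the 14 alternatives. At 2 h it was 0.12, with a 95% interval from -0.12 to 0.35.

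Bak1 (Entrez 12018, chr17:27156755-27165954, minus strand) moved the other way. It had 53.0 and 57.4 CPM in the vehicle libraries, 70.7 and 73.6 at 2 h and 68.6 and 80.8 at 12 h. All 4 TGFβ libraries were above vehicle, and the 2 times overlapped. At 12 h the log2FC was 0.44 (SE 0.117, edgeR's adjusted p = 0.0232). At 2 h it was 0.39 (SE 0.117) with an adjusted p of 0.0749 from edgeR, and 0.0164 once the replicate block was added, the lowest of the alternatives, which reached 0.329. The 12 h call was lost without TMM factors (log2FC 0.31), without vehicle replicate 1 (log2FC 0.38), without vehicle replicate 2 (0.49) and without 12 h replicate 2 (0.30), with adjusted p-values over the alternatives from 0.00434 to 0.152.

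Of the guardians, Bcl2 alone was called. It had 30.4 and 22.2 CPM in the vehicle libraries, 23.9 and 13.0 at 2 h and 42.5 and 37.8 at 12 h (Entrez 12043, chr1:108434755-108610851, minus strand). The vehicle and 2 h libraries overlapped, and both 12 h libraries were above them. Between 2 h and 12 h the log2FC was 1.12 (SE 0.294, edgeR's adjusted p = 0.0268). That call was lost without 12 h replicate 1 (log2FC 1.03) and without 12 h replicate 2 (log2FC 1.20), where the adjusted p over the alternatives ran from 0.000388 to 0.153. Without 2 h replicate 2 the log2FC was 0.75. Against vehicle the log2FC at 12 h was 0.61 (edgeR's adjusted p = 0.136, and 0.00888 to 0.439 over the alternatives). It was 0.63 when replicates were blocked (adjusted p = 0.00888). It was also called at 12 h when the fit held only the vehicle and 12 h groups (log2FC 0.59) or lacked 2 h replicate 1 (0.59) or 2 h replicate 2 (0.61), and it was 0.40 without vehicle replicate 2. At 2 h the log2FC of Bcl2 was -0.51, with a 95% interval from -1.22 to 0.19 (adjusted p = 0.302, and 0.0217 to 0.743 over the alternatives). It was called with the block (log2FC -0.54, adjusted p = 0.0393) and without 2 h replicate 1 (log2FC -1.04), whereas the log2FC was -0.14 without 2 h replicate 2 and -0.27 without vehicle replicate 1.

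Bcl2l1 had 121 and 109.6 CPM in the vehicle libraries, 123 and 68.8 at 2 h and 88.8 and 83.0 at 12 h (Entrez 12048, chr2:152593052-152657464, minus strand). The 2 h replicates spanned the range of all other libraries, and the 12 h libraries lay below vehicle. At 12 h the log2FC was -0.42, with a 95% interval from -1.02 to 0.18 (edgeR's adjusted p = 0.218). It was called at 12 h when the fit held only the vehicle and 12 h groups (log2FC -0.44) or lacked 2 h replicate 1 (log2FC -0.44) or 2 h replicate 2 (log2FC -0.42), the adjusted p over the alternatives running from 0.00957 to 0.479. At 2 h the log2FC was -0.26, with an interval from -0.86 to 0.33. That value turned on the 2 h libraries, with a log2FC of -0.76 without replicate 1, a call, and 0.10 without replicate 2, and with adjusted p-values over the alternatives from 0.00938 to 0.795. Between 2 h and 12 h the log2FC was -0.16, and it was called without 2 h replicate 2 (log2FC -0.52), whereas without 2 h replicate 1 it was 0.32. GENCODE places a further gene model on the same strand across part of Bcl2l1, and its effect on these counts was not tested.

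Mcl1 encodes a short-lived guardian. It had 290.1 and 260.2 CPM in the vehicle libraries, 287 and 215 at 2 h and 305 and 287 at 12 h (Entrez 17210, chr3:95462643-95467099, plus strand). The groups overlapped in all 3 comparisons. The log2FC was -0.13 at 2 h, with a 95% interval from -0.50 to 0.24, and 0.11 at 12 h, with an interval from -0.26 to 0.47. Between the times it was 0.24, and it was called without 2 h replicate 1 (log2FC 0.46, adjusted p = 0.0325, against up to 0.830 in the other alternatives). Changes up to these bounds are not excluded by the data.

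**Figure D2:**
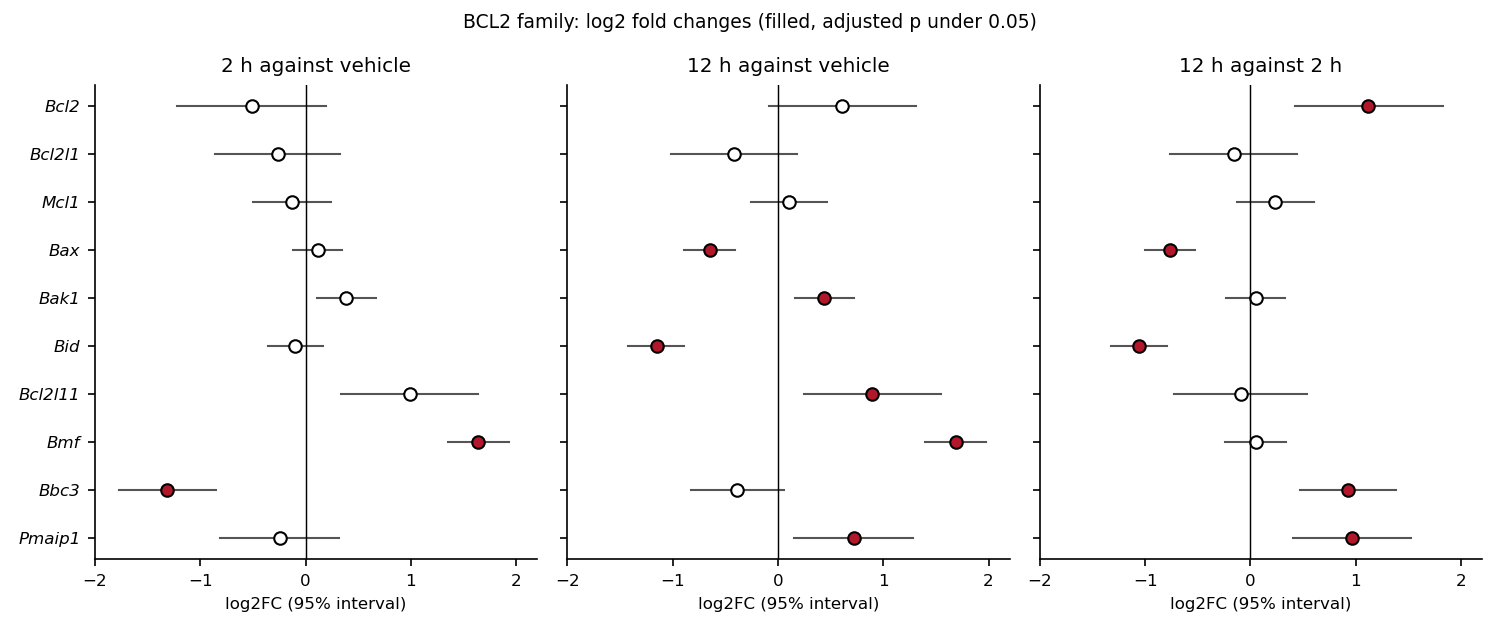
Fitted log2FC (points) of the 10 genes in each comparison, with the 95% interval from the quasi-likelihood fit (lines). Filled points have an adjusted p under 0.05. Intervals are narrowest for Bax, Bid, Bak1 and Bmf and widest for Bcl2, Bcl2l11 and Bcl2l1.

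The libraries of the 2 groups did not overlap for 5 of 10 members at 2 h against vehicle, 4 of them higher and 1 lower, where this was so for 55.8% of all genes tested, 28.3% higher and 27.5% lower. At 12 h against vehicle the count was 9 of 10, Mcl1 being the exception, with 5 higher and 4 lower (76.8% of all genes, 39.5% higher and 37.2% lower). Between the times it was 5 of 10, with 3 higher and 2 lower at 12 h (69.0% of all genes, 34.8% higher and 34.2% lower).

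Levels were compared between genes per kilobase of the exons that GENCODE gives each gene on NCBIM37, which may differ from the gene models the authors counted. With vehicle, Bax was highest at 189 and 204 CPM per kilobase, followed by Mcl1 at 83.2 and 74.7, Bmf at 62.6 and 54.8, and Bid at 42.7 and 37.3. Bcl2l1 (mean 24.3 CPM per kilobase) and Bak1 (22.9) came next with overlapping libraries. Pmaip1 (13.4) and Bbc3 (8.56) followed, and Bcl2 (3.66) and Bcl2l11 (2.82) were lowest and overlapped. At 12 h, Bmf was highest with 182 and 196 CPM per kilobase, above Bax with 121 and 129, and Mcl1 was again next with 87.6 and 82.3. Bid fell to the level of Bcl2l1, with libraries at 17.2 and 18.8 CPM per kilobase against 18.8 and 17.5, while Bbc3, Bcl2 and Bcl2l11 were lowest with means of 6.54, 5.58 and 5.25.

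The summed level of the 10 genes was 455 and 445 CPM per kilobase with vehicle, 607 and 550 at 2 h and 499 and 513 at 12 h. Bmf made up 13.8% and 12.3% of it with vehicle, 31.8% and 31.4% at 2 h and 36.5% and 38.3% at 12 h. These are shares of RNA by this length scale and say nothing of the proteins.

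**Figure D3:**
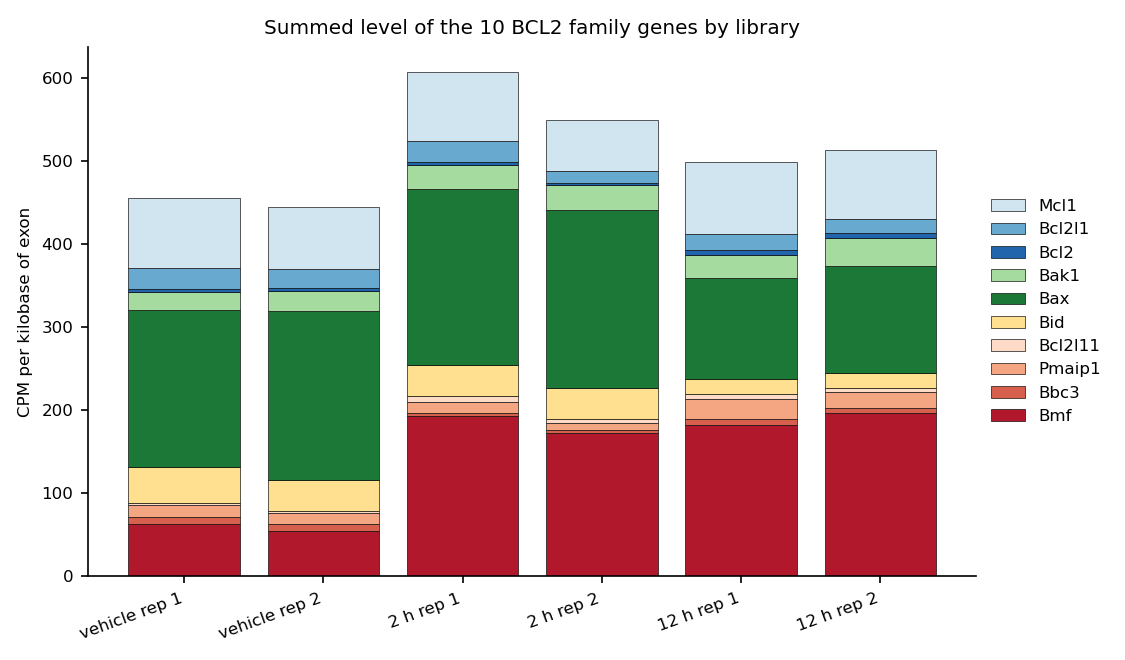
Stacked bars of CPM per kilobase of exon for the 10 genes in each library, from 0, BH3-only genes in red and yellow, Bax and Bak1 in green and the guardians in blue. The Bmf segment grows from 62.6 and 54.8 with vehicle to between 173 and 196 with TGFβ, and the Bax segment is smallest at 12 h.

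Ratios of counts between an apoptotic member and a guardian were compared across libraries as a description and were not tested. The ratio of Bax to Bcl2, a common measure of the balance between pore former and guardian, was 8.32 and 12.3 with vehicle, 11.8 and 22.1 at 2 h and 3.83 and 4.58 at 12 h. Both 12 h libraries lay below the other 4, which overlapped. The ratio of Bmf to Mcl1 went the other way, from 1.13 and 1.11 with vehicle to 3.53 and 4.21 at 2 h and 3.13 and 3.60 at 12 h. That of Bcl2l11 to Bcl2l1 was 0.220 and 0.171 with vehicle and between 0.431 and 0.547 in the 4 TGFβ libraries. Both lay above vehicle in all 4 TGFβ libraries, whereas the next ratio lay below it in all 4. The ratio of Bbc3 to Mcl1 was 0.0617 and 0.0634 with vehicle, 0.0227 and 0.0339 at 2 h and 0.0489 and 0.0395 at 12 h. That of Bid to Bcl2l1 was 1.26 and 1.21 with vehicle, 1.09 and 1.90 at 2 h and 0.686 and 0.803 at 12 h. Thus the ratios differed in direction with the pair chosen.

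Across the 6 libraries, which fall into 3 groups and share scaling and depth, Pearson's r of log2 CPM between members was highest for Bcl2 with Pmaip1 (0.96) and Bax with Bid (0.96), and lowest for Bax with Pmaip1 (-0.89). Bmf, the member with the largest absolute log2FC at 12 h, was closest among all genes tested to Slc6a8 (r = 0.9992 over 6 libraries), Midn (0.9991), B4galt1 (0.9978), Rassf8 (0.9974) and Zfp827 (0.9973). Over these 6 libraries in 3 groups 46 genes had an r above 0.99, and the reason for such high values was not tested.

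A further 72 genes of the apoptosis machinery, in 6 lists, were counted beside the members. Of these, 57 were tested, and 9 were called at 2 h (15.8% against 15.2% of all genes) and 25 at 12 h (43.9% against 43.3%), near the share among all genes at both times. At 2 h, 6 were higher and 3 lower, or 5 and 7 without TMM factors, where all genes too turned from more higher than lower calls (9.91% and 5.25%) to fewer (854 and 974 of 11080 genes). At 12 h, 13 were higher and 12 lower, or 8 and 19 without TMM factors, a shift toward lower calls that all genes shared (1831 higher and 3045 lower). The replicate block called 18 at 2 h and 32 at 12 h, where it called 29.1% and 55.3% of all genes. At 2 h the count was 4 without vehicle replicate 1 (5.63% of all genes called), 3 without vehicle replicate 2 (6.46%) and 5 without either 12 h library (8.18% and 8.19%), which enter that comparison only through the shared fit. At 12 h it was 16 and 14 without vehicle replicate 1 and 2 (30.1% and 30.5% of all genes), and 13 without either 12 h library (26.4% and 25.7%). The counts of all genes thus fell with those of the lists. The median log2FC was -0.08 at 2 h and -0.11 at 12 h.

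Of 15 other BCL2 family and BH3-containing genes, 7 were tested, and the other 8 (Bcl2a1a, Bcl2a1b, Bcl2a1d, Bcl2l10, Bik, Hrk, Bcl2l14 and Bcl2l15) had at most 7 counts in any library. At 12 h, 3 were higher, 1 was lower and 3 were not called. Calls made up 57.1% of those tested, against 43.3% of all genes (21.8% higher and 21.5% lower). Bok, a relative of BAX and BAK1, rose from 9.88 and 11.6 CPM to 32.0 and 50.2 CPM at 2 h and 34.0 and 44.7 CPM at 12 h, a log2FC of 1.94 (SE 0.258, edgeR's adjusted p = 0.00459) and 1.87 (SE 0.258, adjusted p = 0.00163). Like Bmf, it was called at both times. Bnip3, a mitophagy receptor, had a log2FC of -1.75 at 12 h (adjusted p = 0.00427) and Bcl2l13 one of 0.57 (adjusted p = 0.00557), which was lost without 12 h replicate 2 alone among the 14 alternatives.

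Of the 16 genes of the apoptosome, caspases and their mitochondrial partners, all were tested. At 2 h edgeR called 0 of them, where it called 15.2% of all genes, and 2 had an unadjusted p under 0.05. Limma-voom and DESeq2 called 0 each as well (15.2% and 18.9% of all genes). The replicate block and total counts without TMM factors called 1 each (29.1% and 16.5% of all genes). At 12 h, 3 were higher and 5 lower, 50% of those tested, where 43.3% of all genes were called (21.8% higher and 21.5% lower). The executioner gene Casp6 rose with a log2FC of 0.91 in edgeR (adjusted p = 0.00245) and Casp2 with 0.58 (adjusted p = 0.00431).

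All 5 inhibitors of apoptosis were tested. Birc5 encodes survivin, which also serves in cell division, and had 28.6 and 69.3 CPM in the vehicle libraries, 32.2 and 55.0 at 2 h and 0.522 and 0.924 at 12 h. The vehicle replicates differed widely, yet both 12 h libraries were far below them, with a log2FC of -6.09 (SE 0.619, edgeR's adjusted p = 0.000466). Birc6 fell at 12 h (log2FC -0.48, adjusted p = 0.0117), a call lost without any single vehicle or 12 h library. Birc2, which encodes cIAP1, fell at 2 h (log2FC -0.62, adjusted p = 0.00915), a call lost without either vehicle library.

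Of 11 death receptor genes, 9 were tested. At 12 h, 1 was higher and 2 were lower, 33.3% of those tested, where 43.3% of all genes were called (21.8% higher and 21.5% lower). The receptor gene Fas fell from 43.1 and 34.4 CPM with vehicle to 9.58 and 10.2 CPM at 12 h, a log2FC of -1.97 (SE 0.252, edgeR's adjusted p = 0.00119), and Tnfrsf1a, a TNF receptor, had a log2FC of -0.75 (adjusted p = 0.00185). Tradd, an adaptor, rose at 2 h (log2FC 0.44, adjusted p = 0.0395) and at 12 h (0.49, adjusted p = 0.0108). The 2 h call of Tradd held in 5 of 14 alternatives and was lost without any single library and without TMM factors, and the 12 h call was lost without vehicle replicate 2 or 12 h replicate 2. Cflar, which encodes the caspase-8 inhibitor FLIP, fell at 2 h (log2FC -0.46, adjusted p = 0.0280), a call that held in 8 of 14 alternatives and was lost without any single library but 2 h replicate 1 and when only the groups compared were fitted.

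Of 15 transcription factors and cofactors known to act on BCL2 family genes, 12 were tested, and Trp63, Trp73 and Runx3 had at most 2 counts in any library. At 2 h, 3 were higher and 1 was lower, and at 12 h, 4 and 2, so that 33.3% and 50% of those tested were called, against 15.2% and 43.3% of all genes. The 2 h calls of Runx1 and Trib3 held in each of the 14 alternatives, the remaining higher call in 9 and the lower call in 6. Runx1 rose from 17.7 and 15.3 CPM in the vehicle libraries to 186 and 143 at 2 h and 172 and 134 at 12 h, a log2FC of 3.32 (SE 0.200, edgeR's adjusted p = 0.000310) and 3.21 (SE 0.199, adjusted p = 8.45e-05). Trib3, a pseudokinase of the stress response, had log2FCs of 1.53 (adjusted p = 0.00286) and 1.56 (adjusted p = 0.000745). Ddit3, which encodes the stress factor CHOP, fell at 12 h (log2FC -1.89, adjusted p = 0.000634). Of 10 genes whose products act on BCL2 family proteins, 8 were tested. Fbxw7, part of a ubiquitin ligase for MCL1, rose at 2 h (log2FC 0.82, adjusted p = 0.00734) and at 12 h (0.69, adjusted p = 0.00478), and Mapk9, a JNK kinase, at 12 h (0.35, adjusted p = 0.0481). The call of Mapk9 held in 5 of 14 alternatives and was lost with DESeq2, with other scalings and filters and without any single vehicle or 12 h library. That of Fbxw7 was lost at 2 h without vehicle replicate 2 and at 12 h without 12 h replicate 1.

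**Figure D4:**
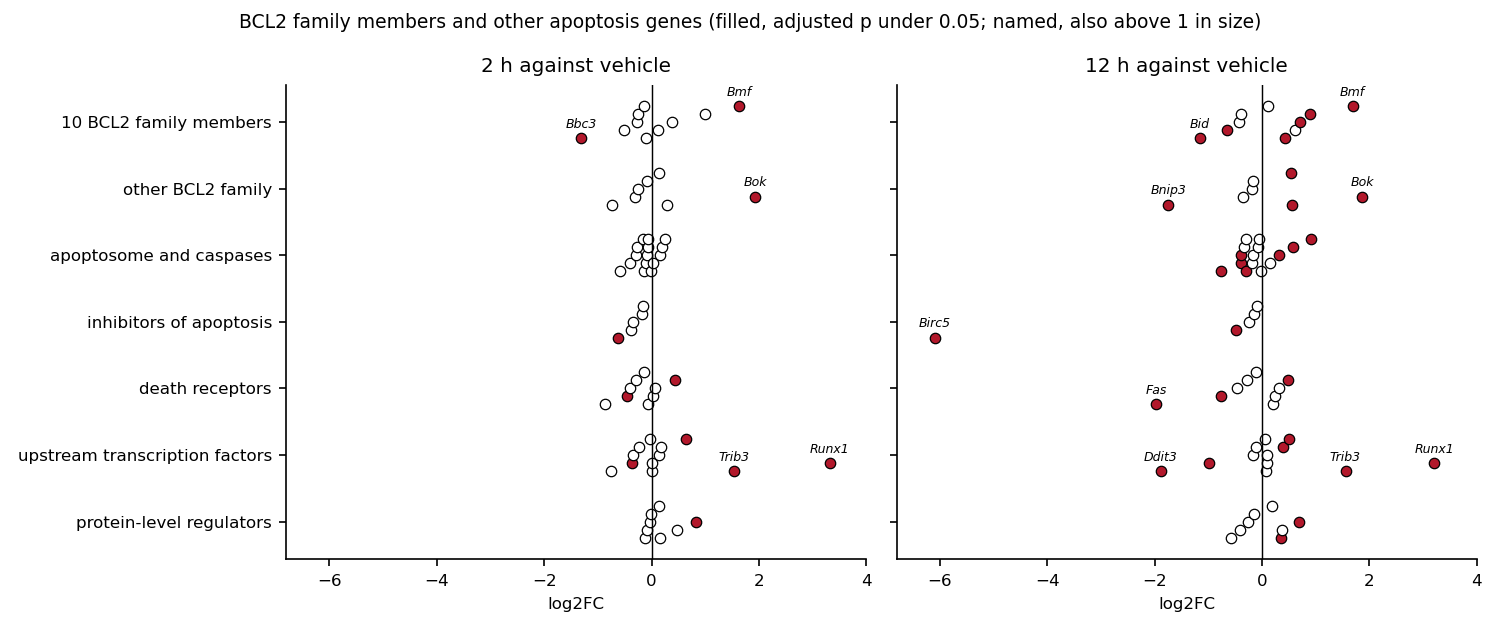
log2FC against vehicle of the 10 members and the tested genes of the 6 other lists, at 2 h (left) and 12 h (right). Each point is a gene, set apart vertically only for legibility. Filled points have an adjusted p under 0.05, and those also above 1 in absolute log2FC are named. The list of the apoptosome and caspases is shown without 1 gene. Genes of a list lie on both sides of 0 in most lists, and Birc5 at -6.09 and Runx1 at 3.21 mark the ends at 12 h.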

How the data were processed

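Stranded total RNA-seq (single 50 bp reads) of 6 NMuMG libraries was analysed. The deposited values are raw read counts per gene. According to their methods and the submitters' processing notes, the authors aligned reads to mm9 with subjunc, kept unique reads, removed duplicates with SAMtools 0.1.19, which can lower the counts of abundant genes, and counted exons by strand with featureCounts. Counts were tested in R 4.3.3 with edgeR 4.0.16 (quasi-likelihood test, TMM factors, 1 fit of 3 groups, two-sided), with Benjamini-Hochberg adjustment over all 11080 genes in each comparison. The study used voom/limma, here an alternative (limma 3.58.1), as was DESeq2 1.42.0. SE is the absolute log2FC divided by the square root of F. The fit was tested on simulated data drawn without a shared deviation of same-numbered replicates, so that test does not bear on the replicate block. Depth was 14705886 to 23786993 counts. GENCODE on NCBIM37 gave positions and exon lengths.

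Members and lists were chosen with earlier results of these data known. Named from the other lists are the 3 lowest adjusted p at 12 h and the 2 lowest at 2 h among called genes, of which 1 is not reported here. For Bmf, the 5 most correlated genes are named (pseudocount 0.25 CPM). Same-numbered replicates deviated together (correlation across genes of 0.708, 0.263 and 0.392 for the 3 pairs of groups), so pairing rests on the data, as the labels name no shared batch. Alternatives were the replicate block, other scalings, filters and tools, only the groups compared, and each library left out. Chromatin data and qPCR were not used here.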

Additional observations from a re-analysis of the deposited data

Results flagged for a closer look

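The change against vehicle differed between 2 h and 12 h in 5 members, by the test of 12 h against 2 h in edgeR, adjusted over all genes. The log2FC at 12 h minus that at 2 h was 1.12 for Bcl2, -0.77 for Bax, -1.06 for Bid, 0.93 for Bbc3 and 0.96 for Pmaip1, with adjusted p-values of 0.0268, 0.00208, 0.00103, 0.0113 and 0.0213. Both changes are taken against the same vehicle libraries, which cancel in this difference. For Bax and Bid the difference was called in each of the 14 alternatives, whereas for Bcl2 and Pmaip1 it was lost without either 12 h library and for Bbc3 without 12 h replicate 1.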

How the results depend on the processing

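Of 420 log2FCs of members recomputed over 14 alternatives, 373 kept their direction and their side of the threshold, 18 lost a call, 18 gained a call and 11 changed sign, none of the 11 called before or after. The block of replicate number moved the members called at 2 h from 2 to 5 and the other apoptosis genes from 9 to 18, and beyond Bcl2, Bak1 and Bcl2l11 at 2 h and Bcl2 at 12 h it changed no member's call. Fitting only the groups compared left 5 of the other genes called at 2 h, where 8.06% of all genes were called. With each library left out in turn, 2 to 5 members were called at 2 h, 3 to 8 at 12 h and 2 to 6 between the times, and 3 to 10, 13 to 30 and 5 to 17 of the other apoptosis genes. Libraries left out gave log2FCs at 2 h from -0.19 to 0.00123 for Bid, from -0.76 to 0.10 for Bcl2l1, from -0.37 to 0.0616 for Mcl1 and from -0.66 to 0.0682 for Pmaip1. Between the times they ran from -0.52 to 0.32 for Bcl2l1, from -0.37 to 0.25 for Bcl2l11, from -0.029 to 0.13 for Bmf and from -0.0776 to 0.16 for Bak1. Total counts without TMM factors moved the median of all genes to -0.12 at 2 h and -0.11 at 12 h, and took the log2FC of Mcl1 at 12 h from 0.11 to -0.0228. The cause of these shifts was not tested, except that a library left out gives fewer samples.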

Other observations

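The genes next to the members in order of start sites on NCBIM37 were looked up, a choice made after the data had been seen. Only counted genes with a matched position were ordered, and 822 of the 21240 had none, so a neighbor need not be the adjacent gene. Of the 20 neighbors, 15 were tested and 12 were called at 12 h against vehicle, where 43.3% of all genes tested were called. Among the 7 called beside a called member, 5 moved with the member and 2 against it, and no such share was taken for other pairs of neighbors. At 2 h, 5 of the 15 were called, 0 of them beside a called member, where 15.2% of all genes were called. Bmf lies between Srp14, whose start is 70.0 kb away and whose log2FC at 12 h was 0.61 (adjusted p = 0.00702 from edgeR), and the mitotic checkpoint gene Bub1b, 48.5 kb away, with -3.76 (adjusted p = 0.00119). For Ccbe1, 156 kb from Pmaip1, the log2FC at 12 h was 4.07 (adjusted p = 6.19e-05 from edgeR). For Itpr3, 28.3 kb from Bak1, it was 0.57 at 2 h and 0.77 at 12 h (adjusted p = 0.0156 and 0.00164). Tpx2, 16.2 kb from Bcl2l1, had -4.77 at 12 h (adjusted p = 0.000364 from edgeR), whereas Bcl2l1 was not called.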
